A study of Rattus norvegicus with 12 samples.

Results

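The antioxidant and NRF2 target genes described here are 41 genes, taken by symbol from the 17494 genes counted in the hippocampus of blast-exposed rats. They cover the transcription factor NRF2 and its inhibitor, heme and quinone enzymes, glutathione synthesis and use, the thioredoxin system, peroxiredoxins, superoxide dismutases, catalase, ferritin and the non-oxidative pentose phosphate pathway. All 41 had counts, and 40 had enough for a test. After months of dietary boldine 0 of the 40 passed the test for a difference from blast-controls. The threshold was an adjusted p of 0.05, which 0% of all genes passed. Over all 12 rats the fitted differences lay between -0.34 and 0.34 on the log2 scale, with 95% intervals reaching from -1.13 to 1.22. The most precise comparison left out the shallowest library and used inferred groups of libraries as a covariate. There the fitted differences lay between -0.20 and 0.21, with 95% intervals reaching from -0.64 to 0.51. The members differed more between inferred groups of libraries than between diets, with 27 of 40 (67.5%, against 24.2% of all genes) higher in 1 group without overlap. No label names these groups. They were chosen to follow the main difference among these same libraries, so this is a description with no test.

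RNA came from 12 wild-type (labelled WT) male Long Evans rats, 1 library per rat, so that the replicates are separate animals. All 12 were exposed to 3 blasts at 10 weeks of age and sacrificed 29 weeks later. The 6 blast-boldine rats ate, from week 2 after blast to the end, an open standard diet that held boldine, an alkaloid of the boldo tree studied as an antioxidant and as a blocker of connexin hemichannels. It held 500 mg of boldine per kg of chow, meant to give about 25 mg/kg/day. The 6 blast-control rats ate that diet without boldine. Rats not exposed to blast were not analysed here, so each value compares diets among blast-exposed rats and says nothing about blast itself. The libraries were made from bulk tissue, in which fewer cells of a type and less RNA per cell cannot be told apart.

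NRF2 is a transcription factor that most cells make all the time and destroy almost as fast, because KEAP1 holds it and passes it to the proteasome. Oxidants and electrophiles modify cysteines of KEAP1, NRF2 then escapes, enters the nucleus, pairs with a small MAF protein and binds antioxidant response elements, which are short sequences near genes for glutathione synthesis, thioredoxin reduction and detoxification. In the brain this response is strongest in astrocytes, which supply neurons with glutathione precursors. Other members, such as the superoxide dismutases and catalase, are held at steady levels in most cells and depend less on NRF2.

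The depth set how firmly each value can be read. Counts on genes summed to between 10148474 and 40850106 in 11 rats, and to 74008 in blast-control rat 6. Levels are given as CPM, which are counts per 1000000 counts of a library after TMM scaling. 1 count was worth 15.8 CPM in rat 6, where 3 counts, taken as the smallest detected value, were 47.5 CPM against 0.0658 to 0.307 CPM in the other rats. These smallest detected values cover counting error only. In rat 6, 14 of the 41 members had no count and 28 had under 3, so its values are given apart. Among the members given in full below, rat 6 had no count of Gsr, Gsta4 and Gpx3. It had 1 count each of Txnip and Srxn1, and 2 each of Sod3 and Cat. The counts of members past a test are given with and without it. For single genes, fitted values without it mostly come from a fit that also has the library sheet, described next, as a covariate. Some genes have only the fitted value with rat 6. The sequencing number at the end of each library name, 1 to 6, occurs on 2 libraries each, as with 2 sequencing sheets of 6 libraries. It was assumed that rat numbers rise with the sequencing number on each sheet, which leaves 4 ways to assign the rats. The one used here accounted for 95.1% of the first principal component of 12529 genes in the 11 deeper libraries. The others accounted for 57.3% or less. Rat 6 was left out of that component, and its sheet follows from that of rat 9, which has the same sequencing number. It puts rats 1, 7, 9, 20, 32 and 35 on sheet A and rats 4, 5, 6, 12, 17 and 19 on sheet B, with 3 rats of each diet on each. No label names a sheet, and the choice among the 4 rests on these libraries. The labels give the tissue as brain and the study's methods as hippocampus, and the summed level of 6 markers of hippocampal neurons (Prox1, C1ql2, Wfs1, Fibcd1, Neurod6 and Zbtb20) was 1147 to 1645 CPM in the 11 rats, with each of the 6 present in every one of them.

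NRF2 reads the antioxidant response element, whose core is TGACNNNGC, where N is any base. Promoter windows were taken from RefSeq for the assembly GRCr8, from 250 bases before to 50 bases after the start of each gene, and both strands were searched. Of the 41 members 33 had a window, and 9 of these (27.3%) held the core, with 24.3% of the 37 member windows matching against 12.1% of all 33469 windows. The 9 matches are shown because they are the stretches of these genes that hold the letters NRF2 is known to read. Each is written 5′ to 3′ on the strand that carries the core, with the core in capitals, and the number before it gives the distance of the first base of the core from the start of the gene, counted as 1 at the start. No match says only that these letters are not in the window, and a match is not a site shown to be bound.
Gclm, -172, chr2:213031953-213031981, minus strand: tggaagacaaTGACTAAGCagaaaccgca
Gstp1, -61, chr1:210769748-210769776, minus strand: tccactgtgtTGACTCAGCatccggggcg
Hmox2, -95, chr10:11337689-11337717, plus strand: ctggccaagcTGACACTGCcttccaagac
Nfe2l2, 39, chr3:81028950-81028971, minus strand: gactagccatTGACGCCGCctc
Prdx1, -135, chr5:135383761-135383789, minus strand: cggcggggtaTGACTCAGCgctttccctg
Prdx4, 20, chrX:43878742-43878770, minus strand: cacgtttccaTGACCAAGCgagcacgaaa
Prdx5, -1, chr1:213532010-213532038, plus strand: cacccgcagaTGACTCTGCccacaggagg
Sod2, -35, chr1:50050185-50050213, plus strand: agctaggcgcTGACCCTGCcggcagcgcc
Txnrd1, -78, chr7:22755964-22755992, plus strand: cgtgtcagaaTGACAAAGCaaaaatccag

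Levels can be set side by side between genes only per length, so CPM were divided by the kilobases of exon the count table gives for each gene. Fth1, the ferritin heavy chain, had the highest level of the 41, with a mean of 722 CPM per kilobase over 11 rats and a range of 535 to 1150. It was followed by Prdx2, a cytosolic peroxiredoxin abundant in neurons, at 178, by Sod1, the cytosolic copper-zinc superoxide dismutase, at 164 and by Gstm1, a glutathione S-transferase, at 156 CPM per kilobase. The ranges of Prdx2 (103 to 242) and Sod1 (127 to 199) overlapped, so that their order is not set by these rats. Among further genes known to respond to NRF2, Prdx1 was at 50.6, Txnrd1 at 33.9, Slc7a11 at 22.9, Srxn1 at 13.6, Nqo1 at 8.13 and Hmox1 at 3.73 CPM per kilobase. Osgin1, a stress-induced growth inhibitor, was lowest at 0.196 CPM per kilobase, with 3 to 21 counts in the 11 rats, and was the member left out of the test. The reads of genes with similar copies can be less certain. By gene name alone, Ftl1 has 21 copies in the annotation of GRCr8, Prdx1 8, Fth1 6 and Akr1b1 5. The sequences of these copies were not compared, and copies under other names were not counted.

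**Figure D1:**
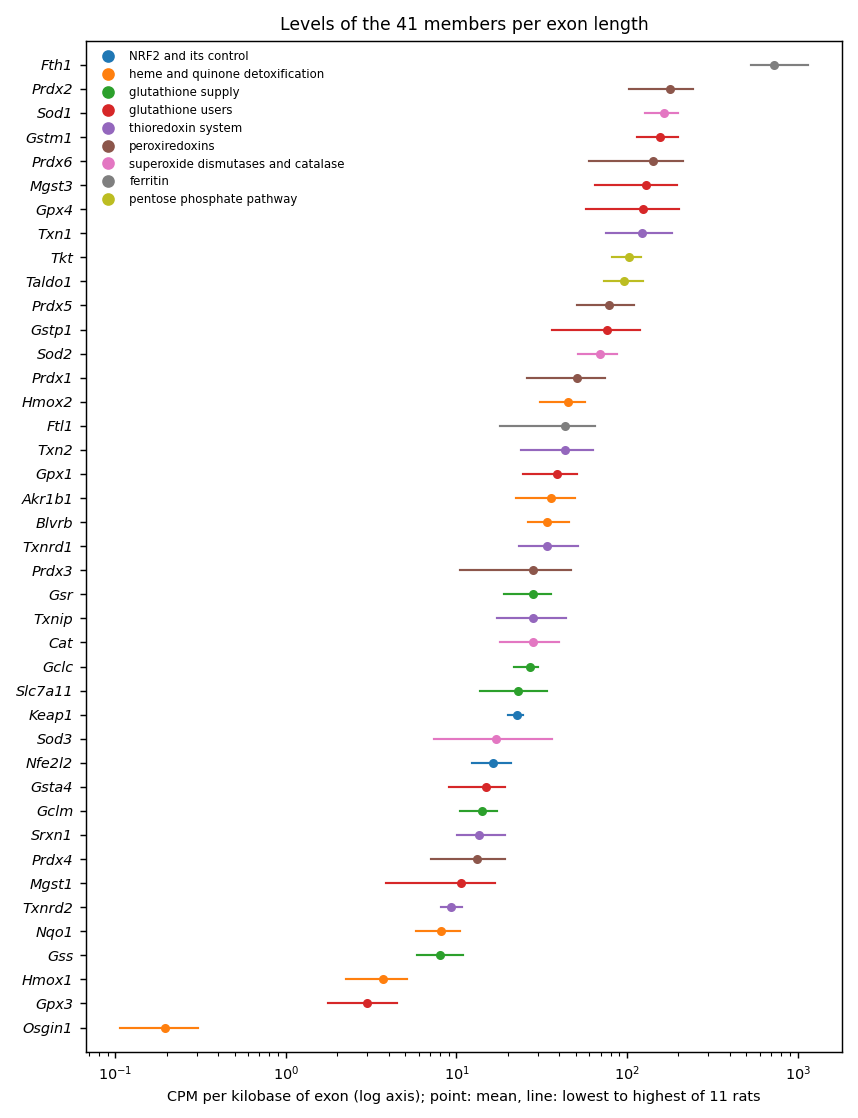
Levels of the 41 members in CPM per kilobase of exon on a log axis, ordered by mean, with the point at the mean and the line from the lowest to the highest of 11 rats (rat 6 left out), coloured by role. Fth1 (722) stands above all other members and Osgin1 (0.196) below them, and Hmox1 (3.73) and Gpx3 (3.01) are the lowest of the members tested.

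The first question was whether boldine-fed rats differed from blast-controls in any of these genes. In edgeR's quasi-likelihood test on all 12 rats, with p adjusted by Benjamini-Hochberg over 12325 genes, 0 of 40 members passed an adjusted p of 0.05, against 0% of all genes, and the smallest adjusted p of any gene was 0.99996. At an unadjusted p under 0.05 there were 0 of 40 members against 1.07% of all genes (0.552% with fitted values above 0 and 0.519% below). DESeq2 (0 of 41 members, 0.542% of genes) and limma-voom (0 members) called none at that threshold either. Of the 40 members 16 had fitted values above 0 and 24 below (40% above 0, against 51.3% of all genes). Their median log2 fold change, blast-boldine minus blast-control, was -0.02 against 0.00 for all genes, and the values ran from -0.34 for Hmox1 to 0.34 for Sod3.

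These 12 rats leave room for changes of moderate size, since the median 95% interval of a member reached 0.52 to either side on the log2 scale and only 12 members had an interval within 0.5 of 0. With rat 6 left out and the library sheet as a covariate, that reach was 0.23, and 36 of 40 members had an interval within 0.5 of 0 and all 40 within 1. In that fit the values ran from -0.20 for Gpx3 to 0.21 for Gsta4, with 20 above and 20 below 0 (50%, against 47.4% of all genes) and a median of 0.00. The lowest bound of any member was -0.64 and the highest 0.51. It called 0 of 40 members at an unadjusted p under 0.05, against 5.35% of genes, and the smallest adjusted p of a member was 0.898. Without rat 6 but with treatment alone, it was 0 of 40 against 1.4% of genes, with 11 members above 0 (27.5%, against 49.7% of genes). With the sheet as a covariate and all 12 rats, it was 0 of 40 against 3.85% of genes, with 21 above 0 (52.5%, against 48.4%). The balance of members above and below 0 therefore moved with the libraries and covariates used. In the 11 rats no member had all blast-boldine values above or all below those of the controls, as 0.073% of genes did in each direction. A two-sided exact permutation test, which exchanges the diets among the rats and compares mean log2 CPM, put 0 of 40 under 0.05 over 12 rats, against 2.28% of genes, and 0 of 40 over 11 rats, against 2.04%.

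**Figure D2:**
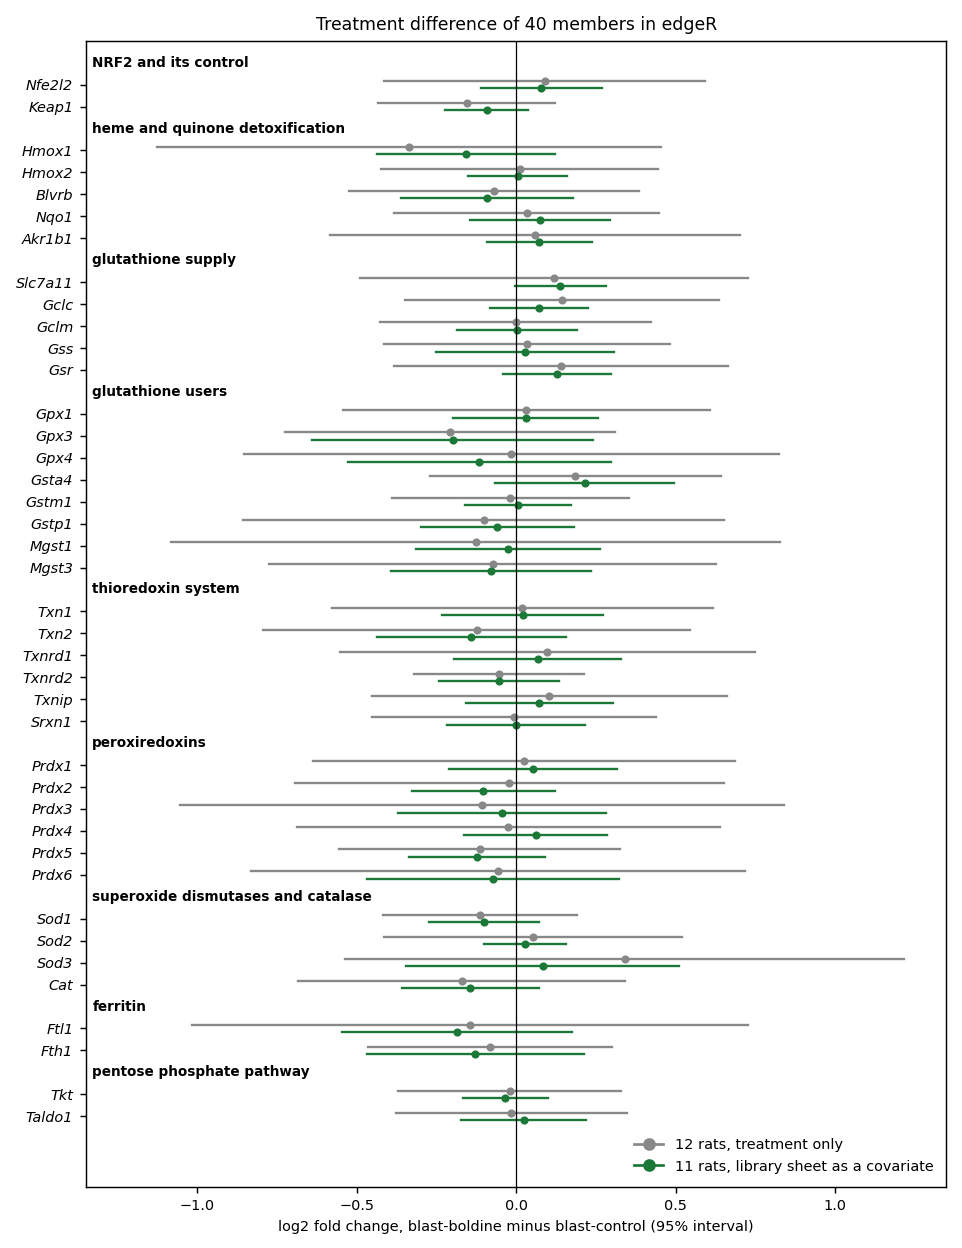
Fitted log2 fold change of the 40 tested members, blast-boldine minus blast-control, on the horizontal axis, with genes grouped by role and bars for the 95% interval. Grey is edgeR on 12 rats and green is edgeR on 11 rats with the library sheet as a covariate. Every interval in both fits crosses 0, and the green values lie between -0.20 and 0.21.

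Nfe2l2 (chr3:60594245-60621671 in mRatBN7.2, the build of the counts), which encodes NRF2, was at 28.2 to 47.8 CPM in blast-boldine rats, with a median of 39.2. In the 5 deeper control libraries it was at 28.3 to 46.7 CPM with a median of 37.1, and rat 6 had no count of it, under the smallest detected value of 47.5 CPM there. The groups overlapped over almost their whole range. The log2 fold change was 0.09 (SE 0.23) in 12 rats and 0.08 with an interval of -0.11 to 0.27 in 11 rats with the sheet. NRF2 protein, whose amount KEAP1 sets after translation, was not measured in these libraries.

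Keap1 (chr8:19768375-19777862), which encodes that inhibitor, varied least of all members, with a coefficient of variation of 6.72% over 11 rats. It was at 63.5 to 77.2 CPM in blast-boldine rats (median 68.9) and at 70.5 to 77.3 CPM in 5 controls (median 75.7), while rat 6 had 8 counts, or 127 CPM, with an exact 95% Poisson interval of 54.7 to 249.6. Of the 6 blast-boldine rats 5 lay below the control median and 3, those of sheet B, below every control. On sheet B the blast-boldine rats were at 67.2, 65.6 and 63.5 CPM against 70.5 and 75.7 in the controls, and on sheet A at 77.2, 70.7 and 74.2 against 76.1, 77.3 and 73.4, where the groups overlapped. The log2 fold change was -0.16 (SE 0.13) in edgeR on 12 rats, the smallest unadjusted p of the members there, and -0.09 with an interval of -0.22 to 0.04 in 11 rats with the sheet. The exact permutation test gave p = 0.0519 over 12 rats and 0.0996 over 11. With diets exchanged only within a sheet it gave 0.035 with rat 6, which rests on its 8 counts, and 0.05 without it. None of these is adjusted, and 5.18% of all genes were under 0.05 within sheets over 12 rats.

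**Figure D3:**
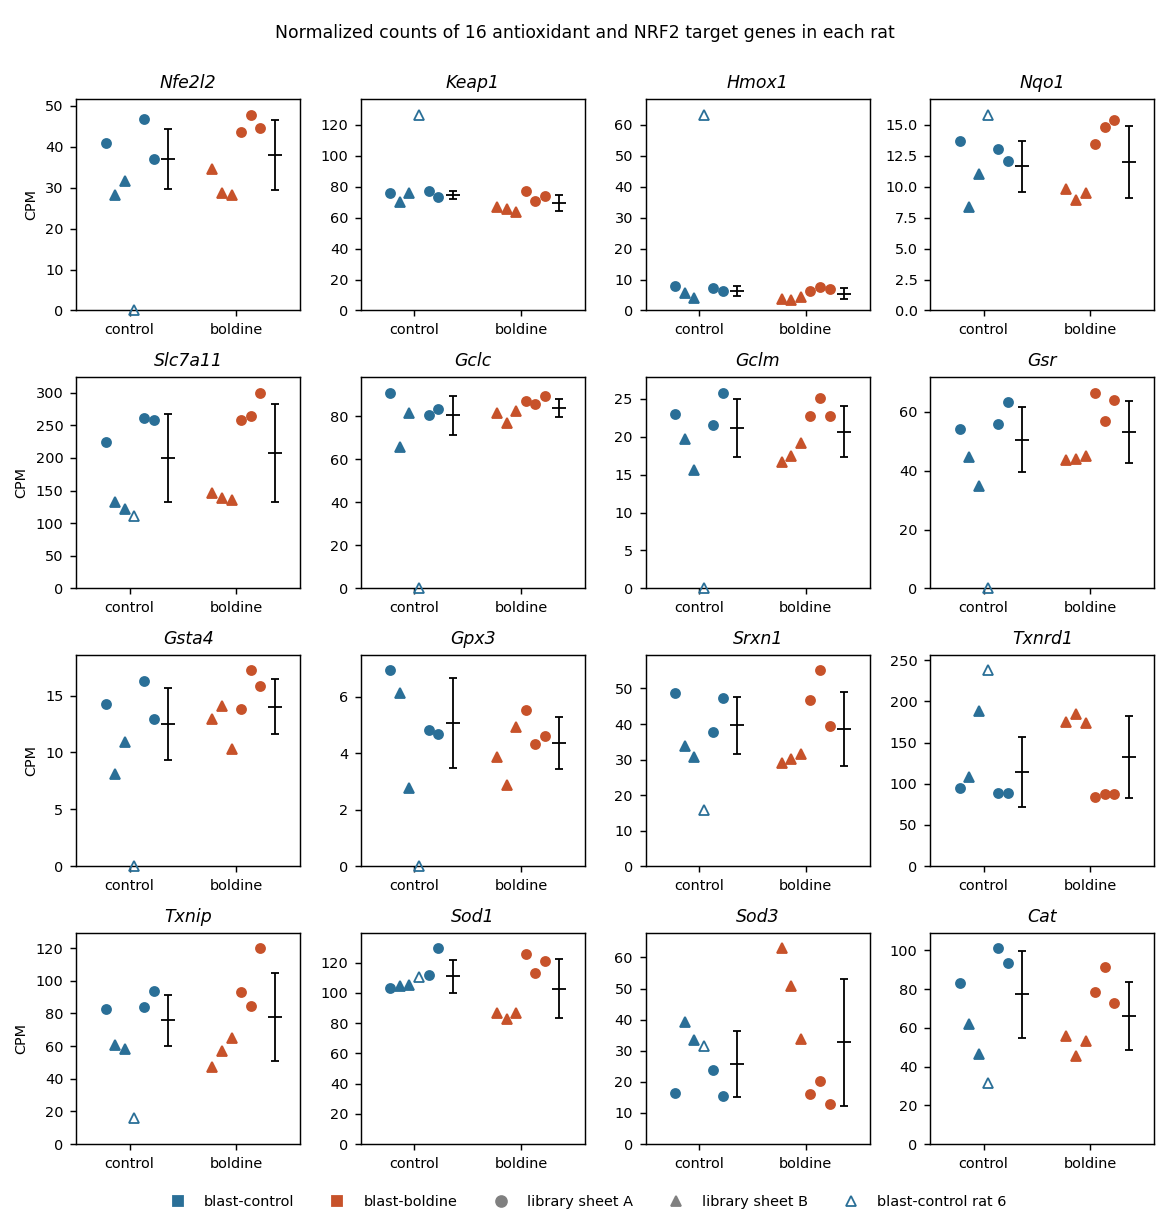
Level in CPM of 16 members in each rat, blast-control on the left and blast-boldine on the right of each panel, with circles for sheet A, triangles for sheet B, an open triangle for rat 6, and a bar for the mean and SD over 6 blast-boldine and 5 control rats without rat 6. The diets overlap in every panel. In the 11 rats other than rat 6 the sheets separate for Nfe2l2, Hmox1, Nqo1, Slc7a11, Gclm, Gsr, Srxn1, Txnrd1, Txnip, Sod3 and Cat.

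Hmox1, the inducible heme oxygenase and one of the most responsive NRF2 targets, lies at chr19:13467258-13474079. It was at 3.47 to 7.71 CPM in blast-boldine rats (median 5.28) and at 3.99 to 7.90 CPM in 5 controls (median 6.42). Rat 6 had 4 counts, or 63.3 CPM with a Poisson interval of 17.3 to 162. The groups of the other 11 rats overlapped, and rat 6 alone stood apart. The fitted log2 fold change was -0.34 (SE 0.37) with all 12 rats in edgeR, which includes these 4 counts, and -0.16 with an interval of -0.44 to 0.12 in 11 rats with the sheet. The exact permutation test over 12 rats gave p = 0.21.

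Nqo1, the quinone reductase that is a standard readout of NRF2, was at 8.92 to 15.4 CPM in blast-boldine rats (median 11.6) and at 8.39 to 13.7 CPM in 5 controls (median 12.1). Rat 6 had 1 count. Nqo1 had a log2 fold change of 0.03 (SE 0.19), and 0.07 with an interval of -0.15 to 0.29 in 11 rats with the sheet. Hmox2, the constitutive heme oxygenase, was at 59.8 to 109.7 CPM with boldine and 68.7 to 105 CPM in 5 controls. Blvrb, a biliverdin reductase, and Akr1b1, an aldose reductase, also overlapped between diets, with log2 fold changes of -0.07 and 0.06. Of the 5 tested heme and quinone genes 3 were above and 2 below 0 in edgeR, with 0 past the test.

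Slc7a11 (chr2:134443042-134517358) encodes the subunit of the cystine-glutamate exchanger that brings in cystine, the limiting precursor of glutathione. Over all rats it was at 136 to 300.5 CPM with boldine (median 202) and at 122 to 261 CPM in 5 controls (median 224), with 7 counts, or 111 CPM, in rat 6. Within the sheets the order differed from that of the medians. On sheet A the blast-boldine rats were at 258, 264 and 300.5 CPM and the controls at 224, 258 and 261, and on sheet B the blast-boldine rats were at 146.1, 138 and 136 CPM and the controls at 132 and 122. The blast-boldine rats of sheet B were all above its controls, whereas on sheet A the lowest blast-boldine rat lay between the control values. The log2 fold change was 0.12 (SE 0.28) in edgeR on 12 rats and 0.14 with an interval of -0.00 to 0.28 in 11 rats with the sheet. DESeq2 with the same rats and covariate gave 0.14 (SE 0.07) with an unadjusted p of 0.0483 and an adjusted p of 0.9995. It was the only member under 0.05 there, 1 of 41 (2.44%), against 4.69% of all genes. The exact permutation test gave p = 0.563 over 12 rats, 0.885 over 11, 0.01 within sheets over 12 and 0.015 within sheets over 11, where 5.78% of all genes were under 0.05 and the smallest p possible was 0.005. In the same 11 rats edgeR gave 0.05 (SE 0.29) without the sheet and 0.14 (SE 0.07) with it. In 12 rats it gave 0.12 (SE 0.28) and 0.15 (SE 0.08). A share of members at or under that of all genes is not a result about the members.

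The other genes of glutathione supply had small differences. Gclc, the catalytic subunit of the enzyme that starts glutathione synthesis, was at 77.0 to 89.3 CPM with boldine (median 83.9) and at 65.8 to 91.0 CPM in 5 controls (median 81.3), with no count in rat 6. Its partner Gclm was at 16.6 to 25.1 CPM (median 21.0) against 15.7 to 25.8 CPM (median 21.6), also with no count in rat 6. In edgeR on 12 rats the log2 fold changes were 0.14 (SE 0.23) for Gclc and -0.00 (SE 0.20) for Gclm. With rat 6 left out and no sheet they were 0.06 and -0.04. With the sheet and 11 rats the intervals were -0.08 to 0.22 for Gclc and -0.19 to 0.19 for Gclm.

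Gsr, the reductase that regenerates glutathione, was at 43.7 to 66.6 CPM with boldine (median 50.8) and at 34.9 to 63.3 CPM in 5 controls (median 54.1). Its log2 fold change was 0.14 (SE 0.24), and 0.13 with an interval of -0.04 to 0.30 with the sheet and without rat 6, the second largest of the 5 genes of glutathione supply after Slc7a11. Gss, glutathione synthetase, was at 11 to 20.4 CPM with boldine and 13.2 to 19.8 CPM in 5 controls. In that fit all 5 had fitted values above 0, from 0.00 to 0.14, and none passed the test. In 12 rats 4 of 5 were above 0.

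The 8 enzymes that use glutathione were spread on both sides of 0, with 2 above and 6 below in 12 rats and 3 above and 5 below in 11 rats with the sheet. Gsta4, the transferase that conjugates the lipid aldehyde hydroxynonenal, was at 10.3 to 17.2 CPM with boldine (median 14.0) and at 8.09 to 16.3 CPM in 5 controls (median 12.9). Of the 6 blast-boldine rats 5 were above the control median, and the groups overlapped. In edgeR its log2 fold change was 0.19 (SE 0.21), and 0.21 with an interval of -0.07 to 0.49 with the sheet and without rat 6, and the exact permutation test over 12 rats gave p = 0.195. The annotation holds 4 named copies of Gsta4, 1 of them coding, with which reads could be shared.

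Gpx3, the secreted glutathione peroxidase, was scarce, at 2.87 to 5.55 CPM with boldine (median 4.47) and 2.76 to 6.93 CPM in 5 controls (median 4.82). The fitted value was -0.21 (SE 0.24) in 12 rats. In the fit with the sheet and without rat 6 it was -0.20. The interval of Gpx3 there, from -0.64 to 0.24, was the lowest-reaching of all members. Gpx1 and Gpx4, the cytosolic and the phospholipid hydroperoxidase forms, had log2 fold changes of 0.03 and -0.01 in 12 rats. The transferases Gstm1, Gstp1, Mgst1 and Mgst3 lay between -0.13 and -0.02.

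In the thioredoxin system, which reduces oxidized proteins and peroxiredoxins, 3 genes were above and 3 below 0 in either fit. Txnrd1 (chr7:20830042-20907861), the cytosolic thioredoxin reductase and an NRF2 target, was at 84.4 to 184 CPM with boldine (median 131) and at 89.3 to 189 CPM in 5 controls (median 94.5), with 15 counts, or 237 CPM, in rat 6. The medians differed while the groups overlapped over almost their whole range. On sheet B the blast-boldine rats were at 174, 184 and 173 CPM and the controls at 108 and 189, and on sheet A all 6 rats lay between 84.4 and 94.5. The log2 fold change was 0.10 (SE 0.30), and 0.07 with an interval of -0.19 to 0.33 with the sheet and without rat 6.

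Txnip, which inhibits thioredoxin and follows glucose supply, was at 47.1 to 119.9 CPM with boldine (median 74.8) and at 58.4 to 93.6 CPM in 5 controls (median 82.5). The fitted log2 fold change was 0.10 (SE 0.26). Srxn1, the sulfiredoxin that restores overoxidized peroxiredoxins and a sensitive NRF2 target, was at 28.9 to 55.1 CPM (median 35.5) against 30.8 to 48.7 CPM (median 37.6), with a log2 fold change of -0.01 (SE 0.21). In both genes the blast-boldine values spanned the whole control range of the 5 deeper libraries. Txn1, Txn2 and Txnrd2 had log2 fold changes of 0.02, -0.12 and -0.06.

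The 6 peroxiredoxins, which break down peroxides, had log2 fold changes from -0.11 to 0.02 in 12 rats, 5 of them below 0. With the sheet and without rat 6 they lay between -0.12 for Prdx5 and 0.06 for Prdx4, with 2 above 0, and 0 of 6 passed the test in either fit. Ferritin, which stores iron, gave -0.08 for the heavy chain Fth1 and -0.14 for the light chain Ftl1 in 12 rats, and Tkt and Taldo1 of the pentose phosphate pathway gave -0.02 each.

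Among the enzymes that remove superoxide and peroxide, Sod1 (chr11:29456673-29462249) was at 82.5 to 126 CPM with boldine (median 100.1) and at 103 to 129.5 CPM in 5 controls (median 106). The diets separated on sheet B and overlapped on sheet A. On sheet B the blast-boldine rats were at 86.5, 82.5 and 86.8 CPM, below the controls at 105 and 106 CPM. Rat 6 had 7 counts, or 111 CPM, with a Poisson interval of 44.6 to 228. On sheet A the blast-boldine rats were at 126, 113 and 121 CPM against 103, 112 and 129.5 in the controls. The log2 fold change was -0.11 (SE 0.14) in edgeR and -0.10 with an interval of -0.27 to 0.07 in 11 rats with the sheet, and p was 0.299 by exact permutation over 12 rats.

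Sod3, the extracellular form found along vessels, was the most variable member, with a coefficient of variation of 55.0% over 11 rats. It was at 12.8 to 63.0 CPM with boldine (median 27.0) and at 15.5 to 39.4 CPM in 5 controls (median 23.9). The log2 fold change of 0.34 (SE 0.41) in 12 rats was 0.08 with an interval of -0.35 to 0.51 with the sheet and without rat 6. Cat, the peroxisomal catalase, was at 45.6 to 91.5 CPM with boldine (median 64.3) and at 46.6 to 101 CPM in 5 controls (median 82.9), and 1 of 6 blast-boldine rats was above the control median. Its log2 fold change was -0.17 (SE 0.24), and -0.14 with an interval of -0.36 to 0.07 with the sheet and without rat 6. Sod2, the mitochondrial form, had 0.05 in 12 rats and -0.03 with rat 6 left out and no sheet. With the sheet and without rat 6 it had 0.03, with an interval of -0.10 to 0.16.

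Within the sheets, where 3 blast-boldine rats were set against 3 controls (A) and against 2 controls other than rat 6 (B), the difference in mean log2 CPM of the 40 members ran from -0.20 to 0.21 on sheet A (median 0.07) and from -0.51 to 0.39 on sheet B (median -0.10). Nfe2l2, Akr1b1, Slc7a11, Gclc, Gclm, Gsr, Gsta4, Gstm1, Prdx4 and Sod2 were higher with boldine on both, 10 of 40 (25%) against 28.5% of all genes. Keap1, Hmox1, Blvrb, Gpx3, Txn2 and Cat were lower on both, 6 of 40 (15%) against 23.5% of all genes. The other 24 members had opposite signs. The shares of members with 1 direction were below those of all genes.

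**Figure D4:**
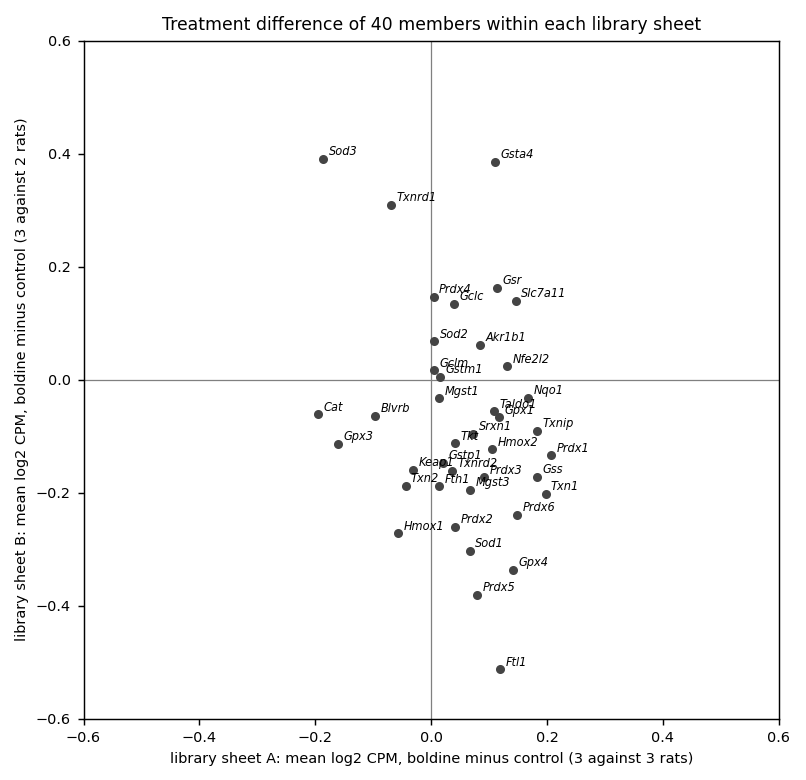
Difference in mean log2 CPM between blast-boldine and blast-control rats for the 40 members, on sheet A (3 against 3 rats, horizontal) and on sheet B (3 against 2 rats, rat 6 left out, vertical). Of the points 10 lie above 0 on both axes and 6 below 0 on both, and Ftl1 (-0.51), Sod3 (0.39) and Gsta4 (0.39) lie farthest from 0 on sheet B.

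The larger differences among these libraries were between the sheets. In the 11 rats, 27 of 40 members (67.5%) were higher on sheet A without overlap, against 24.2% of all genes, and Txnrd1 and Sod3 (5%) were lower without overlap, against 24.8%. This is a description with no test, since the sheets were assigned with these libraries. The mean log2 CPM, sheet A minus sheet B, had a median of 0.58 over the members against 0.02 over all genes, and was above 0 for 37 of 40.

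The largest differences were those of Prdx3 and Mgst1. Prdx3, the mitochondrial peroxiredoxin, was at 45.4 to 66.3 CPM on sheet A and at 14.9 to 27.2 CPM on sheet B, a log2 difference of 1.59. Mgst1, a membrane-bound transferase, was at 11.9 to 15.3 CPM on sheet A and at 3.48 to 6.02 CPM on sheet B, a difference of 1.58. Ftl1, Gstp1 and Prdx6 followed with differences of 1.41, 1.22 and 1.19. Within each sheet these genes did not separate the diets. In the opposite direction, Txnrd1 was lower on sheet A by a difference of -0.87 and Sod3 by -1.31, while Fth1 at -0.06 and Keap1 at 0.13 hardly differed.

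**Figure D5:**
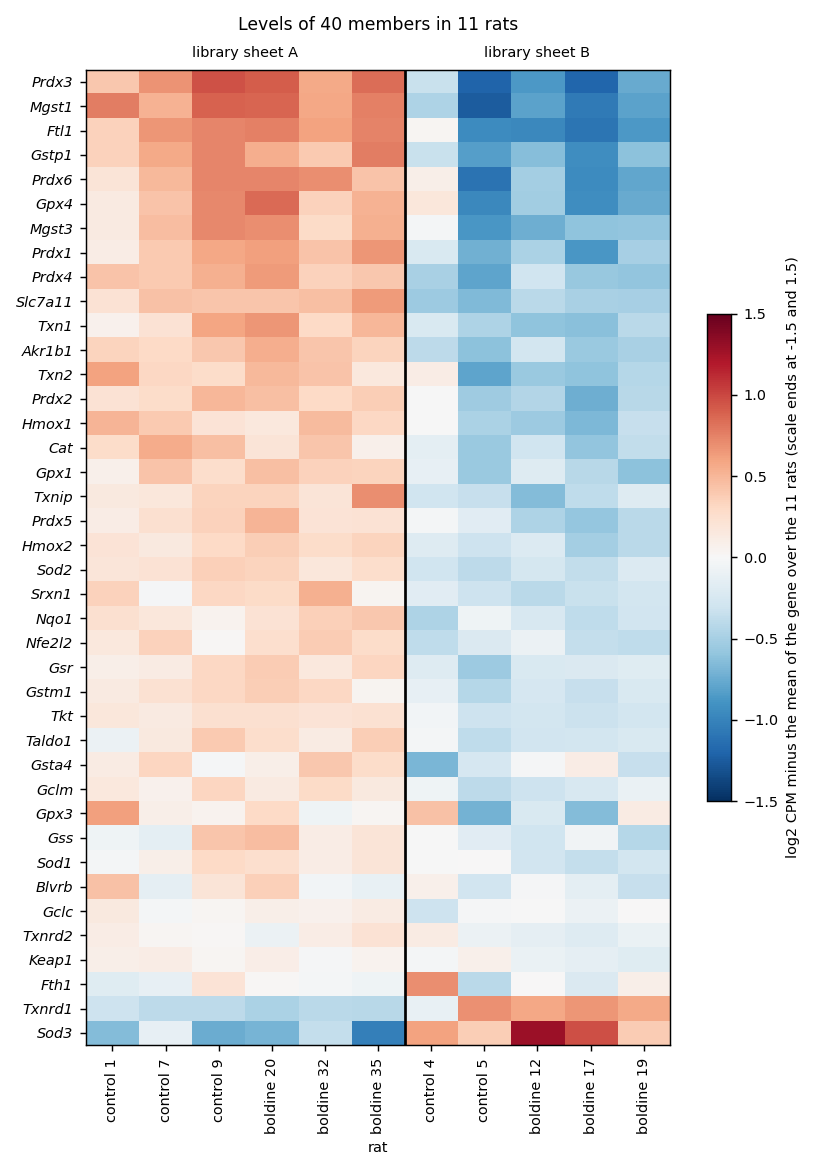
Log2 CPM of the 40 members minus each gene's mean over 11 rats, 1 column per rat with sheet A on the left and sheet B on the right of the black line, genes ordered by the difference between sheets, red above and blue below the gene's mean on a scale from -1.5 to 1.5. Prdx3 and Mgst1 at the top are high in the 6 rats of sheet A, Txnrd1 and Sod3 at the bottom are high on sheet B, and control rat 4 lies closer to sheet A than the other rats of sheet B in many rows.

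Other measures moved with the sheets. The members are short, with a median exon length of 1378 bases against 2225 for all tested genes. Of the 2518 tested genes no longer than 1378 bases, 31.3% were higher on sheet A without overlap and 17.3% lower. The summed level of 6 endothelial markers was 95.5 to 135 CPM on sheet A and 258 to 358 CPM on sheet B. For 8 microglial markers it was 344 to 398 CPM on sheet A and 149.9 to 248 CPM on sheet B, and for 5 red blood cell genes 175 to 246 CPM and 54.1 to 132 CPM. Neuronal markers (6 genes) summed to 4392 to 5922 CPM on sheet A and 6175 to 6653 CPM on sheet B, and markers of oligodendrocyte precursors (4 genes) to 365 to 393 CPM and 280.1 to 349 CPM, again without overlap. Each marker of these lists had counts in all 11 rats. A sum follows its most abundant genes, and other markers of a list varied less. In the 11 rats Flt1 of the endothelial list ran from 30.5 to 174 CPM and Cldn5 from 13.3 to 32.9 CPM. Csf1r of the microglial list ran from 61.9 to 174 CPM and Aif1 from 14.3 to 21.2 CPM. The part of length and of these cell types in the members' difference between sheets was not tested. Between the diets the same sums overlapped, at 149.9 to 398 CPM with boldine and 151 to 379.6 CPM in 5 controls for microglia, and at 95.5 to 358 CPM and 95.9 to 319.5 CPM for endothelial cells. These sums span both sheets. Gene by gene, the fitted values in edgeR on 12 rats were below 0 for all 8 microglial markers (median -0.16). They were above 0 for all 6 endothelial markers (median 0.20), against 51.3% of all genes above 0. Of both lists 0 were under an unadjusted p of 0.05, against 1.07% of all genes. With the sheet and without rat 6 the endothelial values ran from -0.00 for Cldn5 to 0.12 for Tek. The microglial values there ran from -0.47 (SE 0.14) for Tmem119 to -0.05 for Aif1. Tmem119 was under an unadjusted p of 0.05 in that edgeR fit, as were 5.35% of all genes. Of the other lists, astrocyte markers, 8 genes of the cells in which NRF2 is most active, summed to 4184 to 5981 CPM with boldine and 4479 to 6425 CPM in 5 controls.

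Beyond the members, 61 further genes of the same pathways were read from the same edgeR fit, among them NRF2's MAF partners and competitor BACH1, enzymes of NADPH supply, other glutathione enzymes and other NRF2 targets. Of these 59 were tested, 28 were above and 31 below 0, the median log2 fold change was -0.00, and 0 passed the adjusted threshold. At an unadjusted p under 0.05 there was 1 of 59, against 1.07% of all genes. This was Gstm2, a glutathione S-transferase, at 1.62 to 5.69 CPM with boldine and 0.987 to 3.30 CPM in 5 controls, with no count in rat 6. Its log2 fold change was 0.89 (SE 0.35, edgeR adjusted p = 0.99996), the groups overlapped, and with the sheet and without rat 6 it was 0.94. By list, 2 of 8 other NRF2 regulators, 4 of 6 genes of NADPH supply, 10 of 19 other glutathione enzymes and 12 of 26 genes of redox repair and other targets had values above 0.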

How the data were processed

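Hippocampal RNA of 12 blast-exposed rats, 6 blast-boldine and 6 blast-control by the sample labels, was sequenced as stranded total RNA libraries depleted of ribosomal RNA. The authors used HTStream to trim reads and drop PCR duplicates, STAR 2.7.11b for alignment to mRatBN7.2 and featureCounts of Subread 2.0.1 to count read pairs on RefSeq exons, by gene name and strand. The deposited values are these integer counts without normalization. The counting command did not ask for reads with several alignments, so genes with near-identical copies may be undercounted. The deposited exon length column served as the kilobases for levels per length. Columns not mapped to a sample numbered 0.

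Genes were tested with edgeR 4.0.16 in R 4.3.3 (quasi-likelihood, TMM, filterByExpr with its minimum of 10 counts, treatment as the only term, Benjamini-Hochberg over 12325 genes at 0.05, two-sided), fitted on the whole table and tested on simulated data first. Log2 CPM used a prior count of 2. Single members were compared by exact permutation over 924 assignments of 12 rats, 462 of 11, and 400 and 200 within sheets. The alternatives were RLE and upper quartile factors, no filter, 10 counts in every library, DESeq2 1.42.0, limma-voom (limma 3.58.1), robust empirical Bayes, the sheet as a covariate, leaving out each rat in turn, and combinations of sheet, DESeq2 and leaving out rat 6.

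The 41 members, the pathway lists and the marker lists were chosen with earlier results of these data known, so no p adjusted over a list is given. Full values are given for 10 set members (Nfe2l2, Keap1, Hmox1, Nqo1, Gclc, Gclm, Slc7a11, Srxn1, Txnrd1 and Txnip), for the 5 members above and the 5 below 0 ranked first by unadjusted p in edgeR, and for any member with an unadjusted p under 0.05 in edgeR with or without the sheet, of which there were 0. Positions are of RefSeq genes in mRatBN7.2, and promoter windows and copy names of RefSeq genes in GRCr8. Depth ran from 10148474 to 40850106 counts in 11 rats and was 74008 in rat 6. Permutations ran in Python 3.11.15 (numpy 2.4.6, scipy 1.17.1), tables in pandas 2.3.3 and figures in matplotlib 3.10.9.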

Additional observations from a re-analysis of the deposited data

Results flagged for a closer look

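Within each diet the highest and the lowest value of each of the 41 members was compared with the nearest other rat, by Dixon's ratio at its 95% critical value for 6 samples. Of the 82 groups 5 were past it, and chance alone gives about 1 in 20 groups. Of the 5, 4 were set by blast-control rat 6, the library of 74008 counts. Keap1 was highest there at 126.7 CPM, from 8 counts, against 77.3 CPM in the next control. Hmox1 was highest there at 63.3 CPM, from 4 counts, against 7.90 CPM. Gclc was at 0 CPM in rat 6, against 65.8 CPM in the next lowest control, and Gss was at 0 CPM against 13.2 CPM, where the smallest value taken as detected was 47.5 CPM. The fifth was Sod1, highest in blast-control rat 9 of sheet A at 129.5 CPM, against 112 CPM in the next control.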

How the results depend on the processing

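No member passed an adjusted p of 0.05 in any alternative. Among the count models and limma-voom none was under an unadjusted p of 0.05 except Slc7a11 in DESeq2 with the sheet and without rat 6 (1 member, 2.44%, against 4.69% of all genes). Exact permutation within sheets put Keap1 and Slc7a11 under 0.05 over 12 rats (5% of members, against 5.18% of all genes). Over 11 rats it put Slc7a11 there (2.5%, against 5.78%). The number of all genes at an unadjusted p under 0.05, 132 in edgeR on 12 rats, was 254 without a filter on low counts, 5 with at least 10 counts in every library (1729 genes and 3 members kept, as rat 6 limits the genes), 85 in DESeq2, 474 with the sheet, 670 with the sheet and without rat 6, and 736 in DESeq2 with both. Leaving out each rat in turn gave 85 (without blast-boldine rat 12 or 17) to 214 (without blast-control rat 5), with 87 without blast-control rat 1. The cause of these changes was not tested, apart from the fewer genes kept. The median log2 fold change of the members ranged from -0.09 to 0.08 on leaving out each rat, against an SD between rats of 0.63, or 0.43 without rat 6. Of the 40 members 12 had 1 sign in all 21 alternatives that kept them (Nfe2l2, Keap1, Hmox1, Gclc, Gsr, Gpx3, Gsta4, Txnrd2, Prdx5, Sod1, Sod3 and Cat) and 28 changed sign in at least 1. The alternatives share most of their libraries, and the share of all genes with 1 sign was not computed. The count of 12 is therefore not a result about the members. No paired analysis was possible because the rat numbers differ between the diets.

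The depth of rat 6 limits what it can show for most members. In 12 rats the median member interval reached 0.52 to either side, with narrower intervals for the less variable members such as Keap1, and with the sheet and 11 rats it reached 0.23. The sheets are inferred from library names and from these libraries, so p-values with that covariate depend on the assignment. RNA levels alone were measured, at 29 weeks after blast.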

Other observations

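Of the 61 pathway genes that are not members, 60 were kept in the fit with the sheet and without rat 6, and 1 was higher and 1 lower with boldine at an unadjusted p under 0.05, against 5.35% of all genes in that fit. The lower gene was Msrb2, a mitochondrial enzyme that repairs oxidized methionine, at 10.8 to 21.3 CPM with boldine and 16.4 to 21.6 CPM in 5 controls. Its log2 fold change was -0.32 (SE 0.13) in that fit of edgeR and -0.29 (SE 0.23) in 12 rats, and the groups overlapped. Neither gene passed the adjusted threshold.

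Among the marker lists, the summed level of 6 choroid plexus markers varied most between rats, from 8.23 to 1096 CPM with boldine and from 13.6 to 1084 CPM in 5 controls, so that both diets held libraries with little and with much of this tissue. Neuronal markers (6 genes) summed to 4992 to 6653 CPM with boldine and 4392 to 6539 CPM in 5 controls, and oligodendrocyte markers (7 genes) to 3060 to 7460 CPM and 3393 to 7555 CPM. Markers of oligodendrocyte precursors (4 genes) summed to 280.1 to 367 CPM and 303 to 393 CPM, those of ependymal cells (4 genes) to 19.9 to 40.7 CPM and 19.96 to 38.0 CPM, and those of the meninges (5 genes) to 58.3 to 247 CPM and 40.4 to 213 CPM. In edgeR on 12 rats Ccdc153 of the ependymal list and Col3a1 of the meningeal list were under an unadjusted p of 0.05, 2 of 65 markers against 1.07% of all genes. With the sheet and without rat 6 there were 6 of 65 against 5.35% of all genes, with log2 fold changes of 0.93 for Ccdc153, 0.97 for Col3a1, 0.77 for Lum, -0.47 for Tmem119, -0.28 for Wfs1 and -0.22 for Cspg4. In both fits 0 markers passed the adjusted threshold.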
